A study of Mus musculus with 12 samples.

Results

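The genes described here encode 9 proteins of the central nervous system myelin sheath, namely Mbp, Mobp, Cnp, Mag, Mog, Ermn, Mal, Cldn11 and Opalin. They were picked by symbol from a table of 23354 gene symbols, each matched 1 row of the table, and all 9 were abundant enough to be tested. RNA-seq of dissected cortex gave 12 libraries from mice aged 16 postnatal days, 3 mice in each of 4 groups. The Dnmt1 CKO mice had the genotype Olig1cre/+;Dnmt1flox/flox and their littermate controls Olig1+/+;Dnmt1flox/flox, while the Dnmt3a CKO mice were Olig1cre/+;Dnmt3aflox/flox and their littermates Olig1+/+;Dnmt3aflox/flox. Floxed alleles backcrossed to C57BL/6 are thus shared by a CKO group and its controls, and only the CKO mice carry cre. Cre is read from the Olig1 locus, which is active in cells of the oligodendrocyte lineage, and the cre allele takes the place of an Olig1 allele. No group with cre and without floxed alleles was analysed here, so loss of the methyltransferase and loss of an Olig1 allele cannot be told apart within a line.

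Myelin is the stack of oligodendrocyte membrane that wraps axons and speeds conduction. Oligodendrocytes arise from dividing progenitors and switch on myelin protein genes as they differentiate, which in the mouse cortex begins in the first postnatal weeks, so that these genes are commonly read as markers of mature oligodendrocytes. DNMT1 copies DNA methylation onto newly made strands during replication, whereas DNMT3A places methylation on unmethylated DNA. The comparison of each CKO group with its littermates asks how the loss of either enzyme in this lineage alters gene expression in the whole cortex.

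The targeted genes were examined before the myelin genes. Dnmt1 was 10.6, 10.2 and 9.78 FPKM (fragments scaled by transcript length and by mapped fragments) in its controls and 7.26, 9.11 and 9.09 FPKM in the Dnmt1 CKO mice. The groups did not overlap, but the log2 fold change of −0.27 (SE 0.10) had an adjusted p of 0.29 in limma. Dnmt3a was 31.1, 16.9 and 28.7 FPKM in the controls of its line and 13.6, 14.2 and 15.4 FPKM in the Dnmt3a CKO mice. The library labelled Dnmt3a control replicate 2 was thus much closer to the CKO mice than to its fellow controls in Dnmt3a, which goes against its label. The log2 fold change of Dnmt3a in its line was −0.78 (SE 0.23, limma adjusted p = 0.66) with that library and −1.05 (SE 0.07, limma adjusted p = 0.12) without it. Olig1, of which cre replaces an allele, went with the label: it was 49.8 FPKM in that library, 48.4 and 44.1 FPKM in the other Dnmt3a controls and 30.6, 38.8 and 32.2 FPKM in the Dnmt3a CKO mice, so that the library stood with the controls. Effects on the 9 genes in the Dnmt3a line and counts of calls in the lists, and the differences between the lines, are given with and without it. Olig1 fell in the Dnmt1 line from 46.5 ± 4.46 to 20.3 ± 1.81 FPKM (SD, n = 3; log2 fold change −1.19, SE 0.09, limma adjusted p = 0.0043). In the Dnmt3a line its values did not overlap either, but the log2 fold change of −0.49 (SE 0.10) did not pass (limma adjusted p = 0.66, or 0.72 without the library labelled Dnmt3a control replicate 2). Xist, the RNA of the inactive X chromosome, stood at 46.2 to 49.4 FPKM in replicate 3 of 3 groups (both control groups and the Dnmt3a CKO), at 1.69 to 1.85 FPKM in the 3 Dnmt1 CKO libraries and below 0.1 FPKM in the other 6, and the labels give no sex.

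All 9 genes were lower in the Dnmt1 CKO cortices, and none overlapped its controls. They were retained at 17.5% (Opalin) to 38.3% (Cnp) of the control mean. Every one of the 9 passed the threshold of 10% FDR, with adjusted p between 0.00021 and 0.0023 (limma), where 3.15% of the 14115 rows tested were called, 2.30% lower and 0.85% higher. CKO values were lower without overlap in 14.4% of all rows and higher without overlap in 6.38%. The median log2 fold change was −2.03 over the 9 genes and −0.02 over all rows. Their summed level fell from 1603 ± 132 to 493 ± 39.6 FPKM (SD, n = 3), or 30.8% of the control sum. In RNA from whole cortex, fewer oligodendrocytes and less myelin RNA per cell cannot be told apart.

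**Figure D1:**
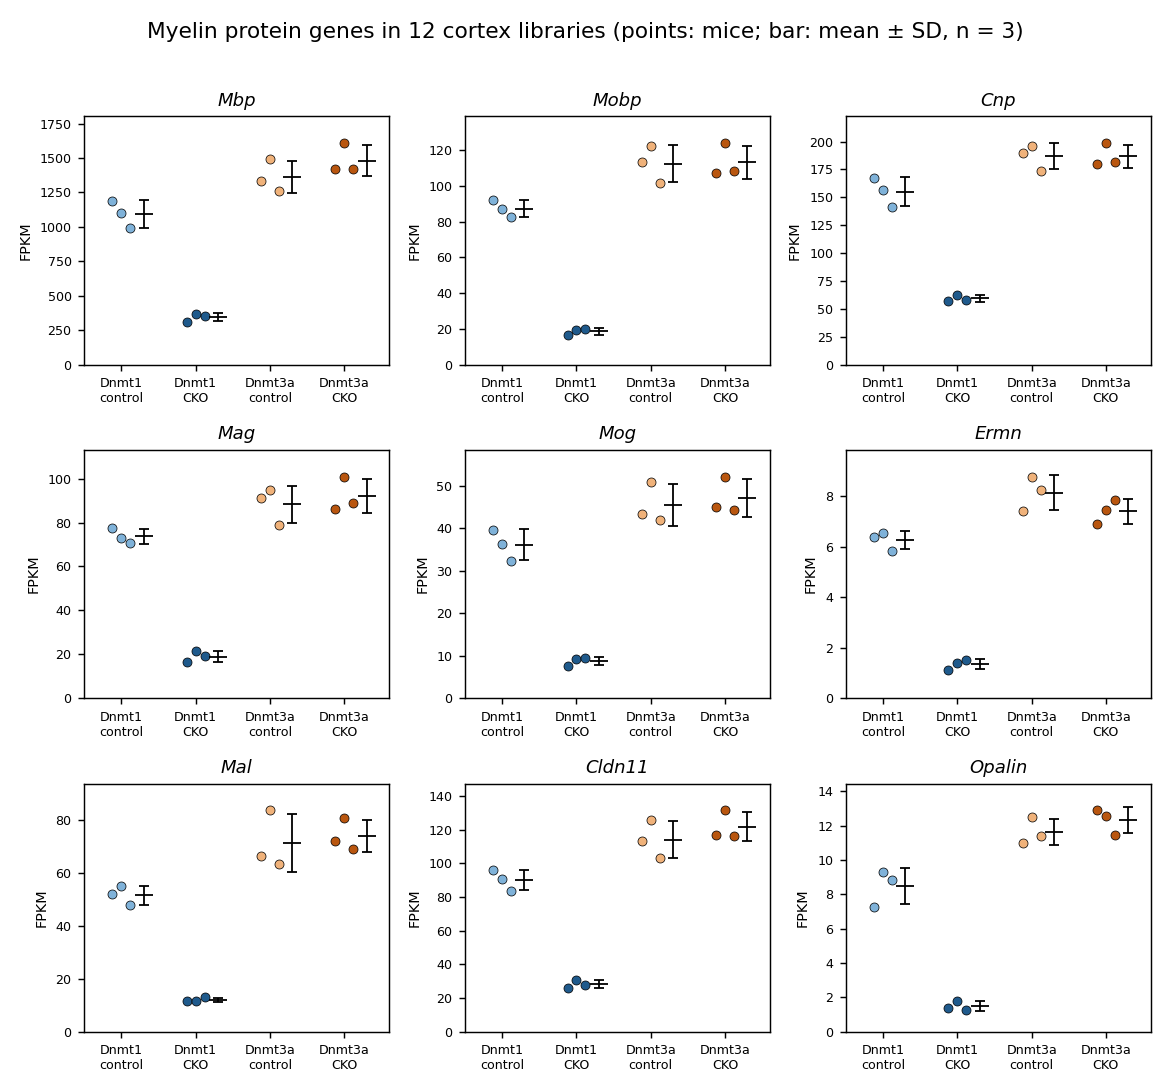
FPKM of the 9 myelin genes in each mouse (points), by group, with the mean and SD (bar, n = 3); each panel has its own vertical axis from 0. In all 9 panels the 3 Dnmt1 CKO points lie below every other point, while the Dnmt3a CKO and Dnmt3a control points overlap, in 5 panels (Mbp, Mog, Mal, Opalin and Cldn11) only through the point of Dnmt3a control replicate 2.

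Proteins of compact myelin are taken first. Mbp, the basic protein that holds the cytoplasmic faces of the membrane together, stood at 1189, 1103 and 991 FPKM in control replicates 1 to 3 and at 313, 370.4 and 350.4 FPKM in CKO replicates 1 to 3. The log2 fold change was −1.67 (SE 0.10, 95% confidence interval −1.92 to −1.41, limma adjusted p = 0.0023). The highest CKO mouse was far below the lowest control. The same symbol also covers Golli transcripts, which other cells use, and a table of values per symbol cannot separate them. Mobp, a small basic protein of the same cytoplasmic layer, measured 91.9, 87.1 and 82.6 FPKM in controls and 16.5, 19.3 and 20.0 FPKM in CKO mice. Its log2 fold change was −2.23 (SE 0.08, limma adjusted p = 0.00032), and its gene lies on chromosome 9 (GRCm38, 120149707 to 120181484, plus strand). Cldn11, the claudin that forms tight junctions between myelin layers (chromosome 3, 31149920 to 31164324, plus strand), was 95.8, 90.5 and 83.9 FPKM in controls against 26.2, 30.7 and 28.0 FPKM. Its fall of −1.67 (SE 0.07, limma adjusted p = 0.0006) was the same size as that of Mbp to 2 decimals. Mal, a proteolipid of membrane rafts (chromosome 2, 127633226 to 127656695, minus strand), was 51.8, 55.0 and 47.7 FPKM in controls and 11.5, 11.7 and 13.0 FPKM in CKO mice. The CKO mice lay close together here, and the log2 fold change of −2.08 (SE 0.07) had the lowest adjusted p of the 9 genes (0.00021, limma).

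Proteins that face the axon, the outer surface or the cytoplasmic channels fell as well. Cnp, the cyclic nucleotide phosphodiesterase of oligodendrocytes (chromosome 11, 100574904 to 100591729, plus strand), is kept out of compact myelin and also appears early in differentiation. It measured 167, 157 and 141 FPKM in controls and 56.9, 62.8 and 58.2 FPKM in CKO mice, a log2 fold change of −1.38 (SE 0.07, limma adjusted p = 0.0011). No other of the 9 genes kept so large a share of its control level. Mag, the adhesion molecule of the innermost layer next to the axon (chromosome 7, 30899176 to 30914873, minus strand), was 77.4, 73.1 and 70.5 FPKM in controls and 16.3, 21.5 and 19.0 FPKM in CKO mice. Mog, an immunoglobulin-family protein on the outermost surface (chromosome 17, 37010743 to 37023398, minus strand), was 39.7, 36.4 and 32.3 FPKM against 7.65, 9.28 and 9.47 FPKM. Both genes fell to about the same extent, with log2 fold changes of −1.96 (SE 0.10, limma adjusted p = 0.0011) for Mag and −2.03 (SE 0.11, limma adjusted p = 0.0013) for Mog.

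The remaining genes were the least abundant. Opalin, a transmembrane glycoprotein of central myelin (chromosome 19, 41061710 to 41077113, minus strand), was 7.28, 9.31 and 8.85 FPKM in controls and 1.37, 1.81 and 1.26 FPKM in CKO mice. It had the lowest log2 fold change of the 9, −2.45 (SE 0.16, 95% confidence interval −2.84 to −2.06, limma adjusted p = 0.0023), and also the widest interval. Ermn, a cytoskeletal protein of late myelination (chromosome 2, 58045113 to 58052864, minus strand), was 6.41, 6.57 and 5.85 FPKM in controls against 1.13, 1.41 and 1.50 FPKM, a change of −2.15 (SE 0.11, limma adjusted p = 0.0013). At these levels the pseudocount matters: with 1 FPKM in place of 0.1 FPKM the changes were −1.93 for Opalin and −1.63 for Ermn. Exons of Cnp share 154 bases (4.23%) with the antisense gene Dnajc7 and those of Ermn 237 bases (6.52%) with Galnt5, and without strand information reads there could come from either gene. Exons of Mobp share 79 bases (1.15%) with Gm38642, a lincRNA on the same strand, where strand information would not separate them either.

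Every CKO effect on the 9 genes in the Dnmt3a line fell short of the threshold. None passed 10% FDR, where 0.0142% of all rows did, and none had an unadjusted p under 0.05, against 7.35% of all rows. Log2 fold changes ran from −0.13 (Ermn) to 0.12 (Mbp) with a median of 0.06, positive for 8 genes. With all 6 libraries CKO and control values overlapped for all 9, and for 5 of them (Mbp, Mog, Mal, Opalin and Cldn11) this came from the library labelled Dnmt3a control replicate 2 alone. Among all rows 5.43% were lower and 7.33% higher without overlap, with all 6 libraries. Mbp was 1336, 1493 and 1260.0 FPKM in the Dnmt3a controls and 1417, 1609 and 1417 FPKM in the CKO mice. The highest control, replicate 2, lay above 2 of the 3 CKO mice, and the other controls lay below all 3. Ermn was 7.40, 8.79 and 8.27 FPKM in controls and 6.90, 7.48 and 7.86 FPKM in CKO mice, with a log2 fold change of −0.13 (95% confidence interval −0.33 to 0.07, limma adjusted p = 0.74). Opalin measured 11.0, 12.5 and 11.4 FPKM in controls and 12.9, 12.6 and 11.5 FPKM in CKO mice. Over the 9 genes the 95% confidence intervals reached from −0.33 at the lowest to 0.41 at the highest, so changes of that size were not resolved by 3 mice a group. The summed level was 2001 ± 175 FPKM in controls and 2136 ± 157 FPKM in CKO mice (SD, n = 3), or 107% of the controls.

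Without the library labelled Dnmt3a control replicate 2, the median effect in the Dnmt3a line was 0.13, the range −0.08 to 0.19 and the lowest adjusted p 0.72 (limma), again with 0 of 9 called. Mbp, Mog, Mal, Opalin and Cldn11 were then higher in the CKO mice without overlap, 5 of the 9 genes against 13.7% of all rows, and none of the 9 was lower without overlap, against 9.45%. The 95% confidence intervals reached from −0.30 to 0.62 over the 9 genes and included 0 for each. Leaving out another library of the line gave fewer separated genes. Without control replicate 1 Ermn was lower without overlap (unadjusted p = 0.044, limma, not called after adjustment), against 10.7% of all rows. An unadjusted p under 0.05 was reached by 5.31% of all rows in that fit. Without CKO replicate 3 Opalin was higher without overlap, against 20% of all rows. Without control replicate 3, CKO replicate 1 or CKO replicate 2 none separated. Among all rows 10.1% to 12.6% were then higher and 8.71% to 10.6% lower without overlap. With the library labelled Dnmt3a control replicate 2 left out, the summed level of the remaining controls was 1972 and 1842 FPKM, and the CKO mean was 112% of theirs. That library had all 9 genes above the mean of its group. The direction was not fixed either: without control replicate 3 or without CKO replicate 2, 6 of the 9 genes were below 0.

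Whether the CKO effect differed between the lines was tested with all 12 libraries in a model with an interaction term. All 9 genes had a lower effect in the Dnmt1 line, from −2.53 (Opalin) to −1.38 (Cnp) on the log2 scale, with adjusted p between 3.7e-06 and 2.0e-05 (limma). Among all rows 2.13% were called, 1.83% in this direction, and the median was −2.02 for the 9 genes against −0.03 for all rows. Without the library labelled Dnmt3a control replicate 2 all 9 were still called, with effects from −2.58 to −1.42, a median of −2.08 and adjusted p between 1.1e-05 and 9.2e-05 (limma).

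**Figure D2:**
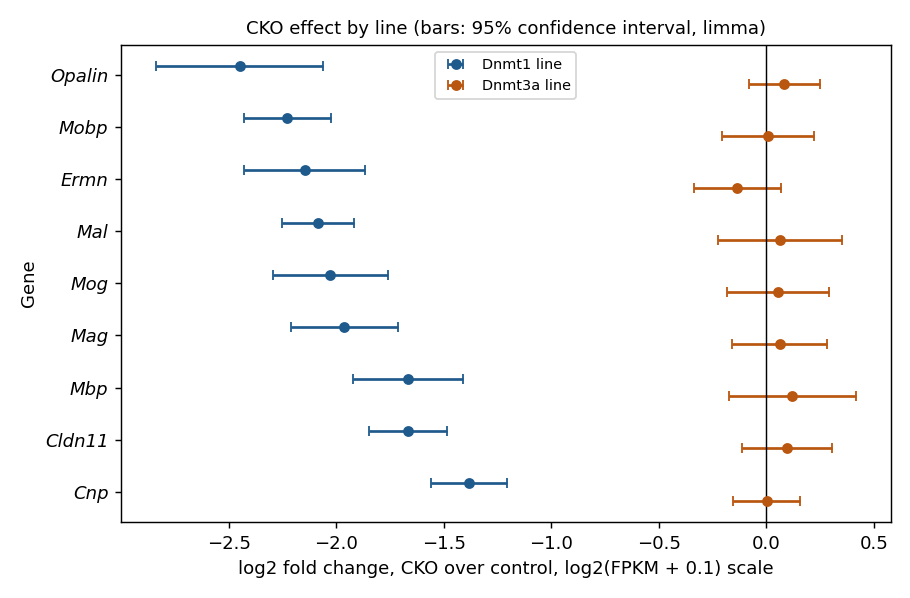
Log2 fold change of CKO over control for each gene (points) with its 95% confidence interval (bars, limma, 3 mice per group) in the Dnmt1 line and the Dnmt3a line. Intervals of the Dnmt1 line lie between −2.84 and −1.21, and those of the Dnmt3a line include 0 for all 9 genes.

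Control mice of both lines were also set side by side, since they serve as the baseline. All 9 genes were higher in the Dnmt3a controls than in the Dnmt1 controls, and no gene overlapped, where 3.98% of all rows were higher and 8.59% lower without overlap. The log2 differences ran from 0.26 (Mag) to 0.46 (Opalin and Mal), and 8 of the 9 had an unadjusted p under 0.05 against 7.74% of all rows. None passed 10% FDR, where 0.00708% of all rows did (limma adjusted p 0.59 to 0.67). Mal, for example, was 47.7 to 55.0 FPKM in the Dnmt1 controls and 63.4 to 83.6 FPKM in the Dnmt3a controls. Without the library labelled Dnmt3a control replicate 2 all 9 stayed higher, with a median of 0.27 in place of 0.34. The line, the litters and any difference in preparation cannot be told apart in this comparison, in which the summed neuron markers were 2162 ± 84.8 FPKM in the Dnmt1 controls and 2095 ± 34.9 FPKM in the Dnmt3a controls (SD, n = 3). No gene passed in any of the other lists, of which the Schwann cell list had 1 tested gene. By direction alone, 18 of 20 other myelin membrane proteins, 10 of 13 genes of lipid synthesis and 7 of 8 striatal markers were above 0, while 9 of 10 progenitor, 8 of 10 neuron, 8 of 10 microglia and 6 of 6 choroid plexus markers were below 0. Summed choroid plexus markers were 278, 120 and 170 FPKM in the Dnmt1 controls and 106, 125 and 6.91 FPKM in the Dnmt3a controls, which overlapped. Their part in the difference between the controls was not tested.

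Because FPKM is scaled by transcript length, levels can be compared between genes. Mbp was the most abundant in every group and made up 67.7% to 70.0% of the summed FPKM of the 9 genes in each of the 12 libraries. The order below it was Cnp, Cldn11, Mobp, Mag, Mal, Mog, Opalin and Ermn in 3 groups, the Dnmt1 CKO being the exception. Cldn11 and Mobp overlapped in those 3 groups, and Mag and Mal overlapped in the Dnmt3a controls, through replicate 2 alone, whose Mal (83.6 FPKM) exceeded Mag of replicate 3 (78.7 FPKM). In the Dnmt1 CKO cortices Cldn11 (28.3 ± 2.26 FPKM) was clear of Mobp (18.6 ± 1.88 FPKM), Mobp overlapped Mag (18.9 ± 2.58 FPKM), and Opalin overlapped Ermn. The genes therefore lost unequal shares of their transcripts in this group.

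To describe this, each gene was expressed as a log2 ratio to the mean of the 9 genes in the same library, from log2(FPKM + 0.1) values. That mean includes the gene itself, so the changes of the 9 genes cancel out. Unequal falls must then put some genes higher and others lower. In the Dnmt1 line the ratio was higher in CKO mice for Cnp (by 0.57), Cldn11 (by 0.29) and Mbp (by 0.29), and lower for Opalin (−0.49), Mobp (−0.27), Ermn (−0.19) and Mal (−0.13). None of these 7 overlapped, whereas Mag (−0.01) and Mog (−0.07) overlapped. An exact permutation test of 3 against 3 mice cannot give a p below 0.1, the value reached by all 7 (two-sided, adjusted p = 0.13 over the 9 genes), so the differences rest on the separation of the values. In the Dnmt3a line the ratios of Mbp and Cldn11 were also higher in CKO mice without overlap, by 0.08 and 0.06 with all its libraries. Both had an exact p of 0.1 (two-sided, adjusted p = 0.45), and the other 7 genes overlapped. The spread between the highest and the lowest change was 1.07 in the Dnmt1 line and 0.26 in the Dnmt3a line (0.27 without the library labelled Dnmt3a control replicate 2). With a pseudocount of 1 FPKM Ermn turned from −0.19 to 0.17, Opalin became −0.13 and overlapped (exact p = 0.4), and Cnp stayed highest at 0.44 with Mobp lowest at −0.37. Mal overlapped with a pseudocount of 0.01 FPKM (−0.12, exact p = 0.2). With the median of the 9 genes in place of their mean, Mal (−0.07, exact p = 0.6) and Opalin (−0.43, exact p = 0.2) overlapped. Cnp, Cldn11, Mbp and Mobp kept their direction without overlap under these 3 alternatives, whereas the positions of Opalin, Ermn and Mal depended on them.

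**Figure D3:**
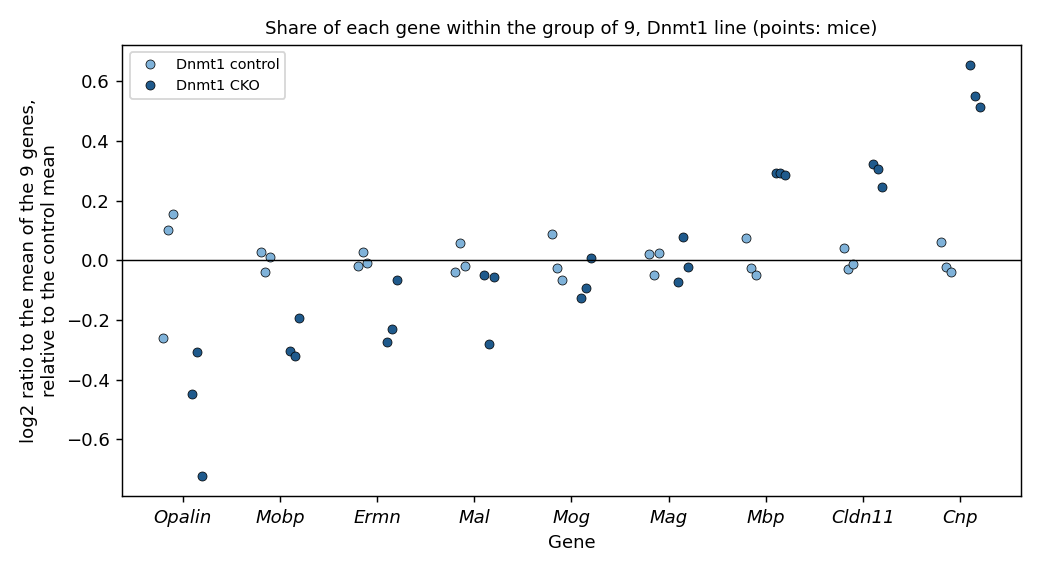
Log2 ratio of each gene to the mean of the 9 genes in the same library, set to 0 at the control mean (vertical axis), for the 3 control and 3 CKO mice of the Dnmt1 line (points). Cnp, Cldn11 and Mbp lie above their controls and Opalin, Mobp, Ermn and Mal below, while Mag and Mog overlap.

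The 9 genes also moved together between mice of the same group. In Dnmt1 CKO replicate 1 all 9 lay below their group mean, by 0.14 on average on the log2 scale, and this library also had the lowest Dnmt1 value (7.26 FPKM). In Dnmt3a control replicate 2 and Dnmt3a CKO replicate 2 all 9 lay above it, by 0.14 and 0.10. The median SD within a group was 0.10 to 0.15 for the 9 genes and 0.07 to 0.09 for all rows on that scale. These are descriptions of single libraries, and no test was made of them.

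Upstream sequences of the genes are shown because the deleted enzymes methylate cytosine in CpG dinucleotides. RefSeq windows of 250 bases before the transcript start (GRCm38.p6) were matched for 8 of the 9 genes, 10 windows in all, since Mag has 3 starts. The 2 largest and the 2 smallest changes among genes with a single window are given, a choice made after the values were seen. Each is written from 5′ to 3′ on the strand of the gene, with CpG dinucleotides in capitals, for Opalin (chr19:41077114-41077363, minus strand), Mobp (chr9:120149492-120149741, plus strand), Cldn11 (chr3:31149670-31149919, plus strand) and Cnp (chr11:100574689-100574938, plus strand).
Opalin: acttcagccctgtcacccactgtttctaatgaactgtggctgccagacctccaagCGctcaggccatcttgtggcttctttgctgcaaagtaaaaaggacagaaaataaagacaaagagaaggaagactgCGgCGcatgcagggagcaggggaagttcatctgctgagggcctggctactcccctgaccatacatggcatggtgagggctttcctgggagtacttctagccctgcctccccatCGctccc
Mobp: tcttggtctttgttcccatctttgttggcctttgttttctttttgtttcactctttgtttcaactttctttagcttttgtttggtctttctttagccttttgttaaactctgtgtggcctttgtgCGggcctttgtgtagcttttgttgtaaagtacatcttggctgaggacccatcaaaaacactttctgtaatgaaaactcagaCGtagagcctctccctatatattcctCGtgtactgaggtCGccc
Cldn11: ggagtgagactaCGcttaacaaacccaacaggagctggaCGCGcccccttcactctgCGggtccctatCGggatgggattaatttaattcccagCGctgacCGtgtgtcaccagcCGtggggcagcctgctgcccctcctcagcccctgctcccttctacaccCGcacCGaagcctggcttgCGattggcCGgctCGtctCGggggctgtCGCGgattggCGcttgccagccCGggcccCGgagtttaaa
Cnp: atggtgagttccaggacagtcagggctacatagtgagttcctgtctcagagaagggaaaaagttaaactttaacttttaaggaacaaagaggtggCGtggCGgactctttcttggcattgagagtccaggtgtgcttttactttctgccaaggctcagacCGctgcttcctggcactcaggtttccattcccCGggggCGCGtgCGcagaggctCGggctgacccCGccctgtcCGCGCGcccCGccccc
Opalin and Mobp, with the lowest log2 fold changes in the Dnmt1 line, hold 4 CpG dinucleotides each, while Cldn11 holds 19 and Cnp 13. Across all 32851 RefSeq windows the median was 6 and the middle 50% ran from 2 to 16. The other windows held 3 (Ermn), 7 (Mal), 2 (Mog) and 2, 3 and 3 (Mag). Of these 8 genes, Cldn11 and Cnp therefore had both the most CpG dinucleotides and the smallest decreases. This is a description of 8 genes, and DNA methylation was not analysed here.

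Short motifs were searched on both strands of the same windows. The core CTGGNAC, bound by the myelin regulatory factor MYRF, was found in 4 of the 10 windows (Mog, Cnp and 2 of the overlapping Mag windows) and in 16.1% of all windows. The SOX cores ACAAAG or ACAATG, of the kind bound by SOX10, were present in 6 of 10 windows and in 25.2% of all. Mobp alone held 6 such matches, which can be read in its sequence as repeats of ctttgt. An E-box, CANNTG, occurred in 4 of 10 windows and 66.2% of all, and TATAAA in 0 of 10 and 12.4% of all. A match of letters does not show that a factor binds there.

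**Figure D4:**
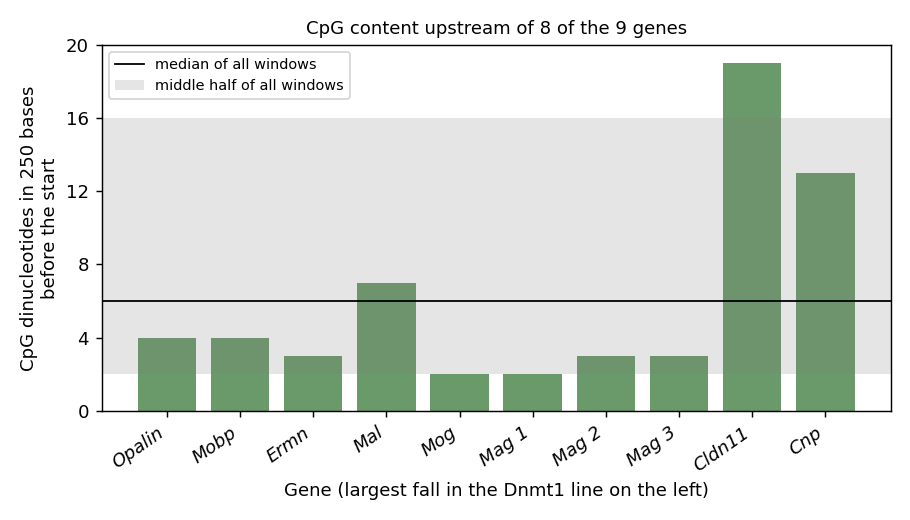
Number of CpG dinucleotides in the 250 bases before each transcript start (bars) for the 10 RefSeq windows of 8 genes, ordered by their log2 fold change in the Dnmt1 line; the line is the median of all windows and the grey band their middle 50%. Cldn11 (19) and Cnp (13) stand above the other 8 windows, which hold 2 to 7.

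Other genes of the myelinating programme fell in the Dnmt1 line too. Of 20 further myelin membrane proteins 14 fell and 0 rose at 10% FDR, where 2.30% of all rows fell and 0.85% rose, shares against which the counts of the lists that follow are also read. The membrane proteins had a median log2 fold change of −0.75 against −0.02 for all rows. Tspan2, a tetraspanin of the sheath, fell from 38.0 ± 4.84 to 12.5 ± 1.20 FPKM (SD, n = 3; log2 fold change −1.60, limma adjusted p = 0.0029). Gpm6b, a membrane glycoprotein that neurons also express, was the most abundant gene of the list that did not pass, at 281 ± 9.17 and 265 ± 1.69 FPKM (limma adjusted p = 0.41). With any library of the line left out, 13 to 15 of the 20 were called.

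Among 13 genes of myelin lipid synthesis 9 fell and 0 rose, with a median of −0.81. Log2 fold changes were −1.79 for Ugt8a, which makes the galactolipid galactosylceramide, −1.68 for Aspa, which frees acetate from N-acetylaspartate, and −1.67 for Fa2h, the fatty acid hydroxylase of myelin lipids (limma adjusted p = 0.0002, 0.0024 and 0.0011). Sqle, a cholesterol synthesis enzyme used by many cells, measured 29.5 ± 1.66 and 24.0 ± 1.74 FPKM and did not pass (limma adjusted p = 0.12), although its groups did not overlap. It was called, and lower in CKO mice, under 4 of 20 alternatives, with a lowest limma adjusted p of 0.021.

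Transcription factors and markers of earlier stages also held genes that fell. Of 10 transcription factors of the lineage 7 fell, with a median of −0.64, led by Olig1 (−1.19), Nkx6-2 (−1.16) and Myrf (−1.12). Olig1 carries cre on an allele in these mice. Zfp488 was 20.8 ± 1.79 FPKM in controls and 22.6 ± 1.26 FPKM in CKO mice and did not pass (limma adjusted p = 0.52). Among 10 markers of newly formed oligodendrocytes 7 fell (median −0.51), including Bcas1 (−0.76), Enpp6 (−0.73) and Sirt2 (−0.66), and Fyn, at 45.2 ± 3.12 and 42.0 ± 0.951 FPKM, did not pass. Among 10 progenitor markers 4 fell (median −0.22), namely Gpr17 (−0.56), Olig2 (−0.54), Sox6 (−0.31) and Pdgfra. Gpr17 and Olig2 stand in 2 of these lists each. The count of progenitor markers was 1 without control replicate 2, CKO replicate 1 or CKO replicate 3, with Gpr17 alone called, and 2 without any other library of the line. In the same way 4 transcription factors were called without control replicate 1 or 2 or CKO replicate 1 or 3, and 4 markers of newly formed oligodendrocytes without control replicate 2 or CKO replicate 1 or 3.

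**Figure D5:**
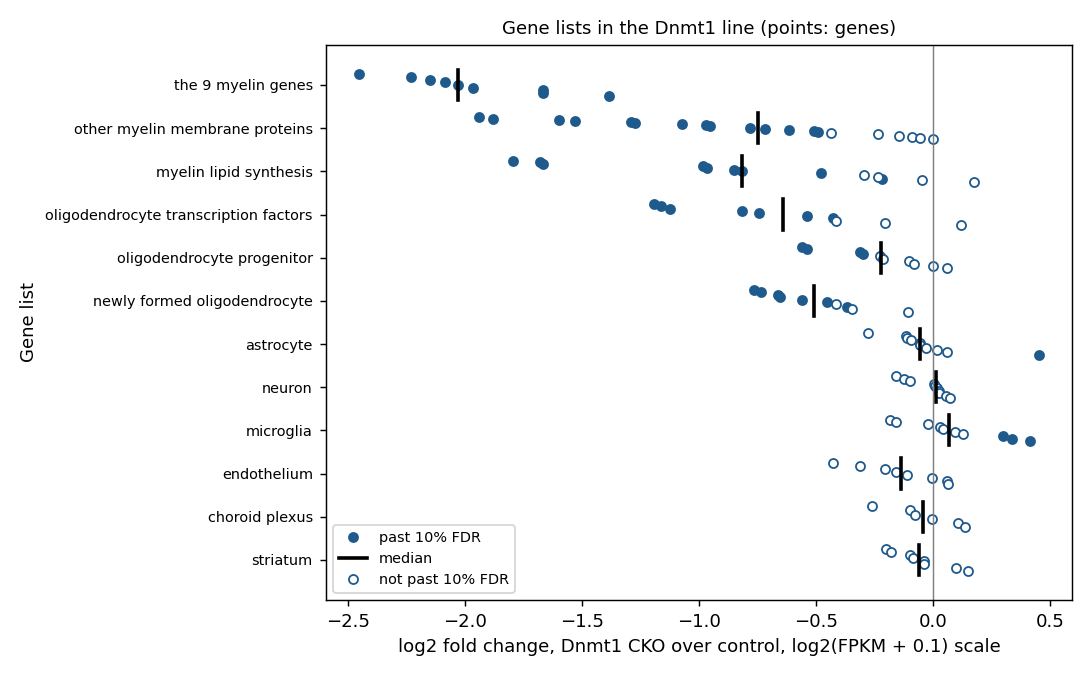
Log2 fold change of Dnmt1 CKO over control for each gene (points) of the 9 myelin genes and 11 other lists; filled points passed 10% FDR, and the vertical bar is the median of a list. The 9 myelin genes reach the lowest values, and the lists of astrocytes, neurons, microglia, endothelium, choroid plexus and striatum have medians between −0.13 and 0.07.

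In the Dnmt3a line 0 genes passed in any of these 5 lists, where 0.0142% of all rows did. In the difference between the lines 15, 8, 6, 6 and 1 genes passed, against 2.13% of all rows, all lower in the Dnmt1 line (membrane proteins, lipid synthesis, transcription factors, newly formed oligodendrocytes and progenitors). Without the library labelled Dnmt3a control replicate 2 the counts were again 0 in the Dnmt3a line, and 15, 7, 5, 6 and 1 in the difference, against 1.69% of all rows (1.4% lower in the Dnmt1 line).

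Few markers of other cells passed the test in the Dnmt1 line. Of 10 neuron markers 0 passed (median 0.01), with Snap25, a protein of synaptic vesicle release, at 521 ± 33.5 and 523 ± 11.3 FPKM. Of 10 astrocyte markers only Gfap, the intermediate filament of astrocytes, rose, from 48.6 ± 1.27 to 66.5 ± 3.10 FPKM (log2 fold change 0.45, limma adjusted p = 0.0065). The astrocyte list had a median of −0.05, and its most abundant gene, the glutamate transporter Slc1a2, was 332 ± 9.60 and 308 ± 6.03 FPKM. Slc1a2 did not pass, but it was lower in CKO mice without overlap, as were 14.4% of all rows. Of 10 microglia markers (median 0.07, 7 above and 3 below 0) 3 rose where 0.85% of all rows did, the complement genes C1qa (0.34) and C1qb (0.42) and the receptor gene Trem2 (0.30), and the last was called in none of the fits without a library of the line. Summed over the list, microglia markers were 152, 145 and 147 FPKM in controls and 169, 168 and 158 FPKM in CKO mice, without overlap. In level, no microglia marker was near 0 FPKM, the lowest having a mean of 2.90 FPKM over the 12 libraries. The part of these cells in the myelin result was not tested. Among the other lists 0 of 8 endothelial markers passed, with Cldn5 at 27.1 ± 2.47 and 21.9 ± 2.54 FPKM (SD, n = 3), without overlap. The endothelial list had a median of −0.13 with 6 of 8 below 0, and its sum was 85.2, 80.4 and 78.7 FPKM in controls and 73.5, 77.6 and 73.6 FPKM in CKO mice, also without overlap.

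Markers of neighbouring tissue varied widely between libraries. Summed choroid plexus markers ran from 3.58 FPKM (Dnmt3a CKO replicate 3) to 423 FPKM (Dnmt3a CKO replicate 2), with Ttr the most abundant, and striatal markers from 140 to 294 FPKM, with Ppp1r1b the most abundant. In the Dnmt1 line neither list had a called gene, with 0 of 6 and 0 of 8, and both sums overlapped between groups (120 to 278 and 85.6 to 250.1 FPKM for choroid plexus in controls and CKO mice). Pmp2, a marker of peripheral myelin, had a mean below 0.1 FPKM. Egr2 was the most abundant gene of the Schwann cell list, and of its 5 genes only Egr2 was tested, with 0 called.

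Across all 12 libraries, Ugt8a (0.10), Plekhh1 (0.10) and Fa2h (0.14) were among the 5 genes whose profiles lay closest to the mean profile of the 9 genes, by the root mean square difference on the log2 scale after centring. The median of 14066 other symbols was 0.97. Plekhh1, which stands in none of the lists, was 2.67 ± 0.0145 FPKM in Dnmt1 controls, 0.712 ± 0.0604 FPKM in Dnmt1 CKO mice, 3.46 ± 0.267 FPKM in Dnmt3a controls and 3.36 ± 0.151 FPKM in Dnmt3a CKO mice (SD, n = 3). Of the 9 genes themselves Mog (0.06) and Mag (0.06) lay closest to the mean profile, which they are part of, and Cnp (0.28) and Opalin (0.29) farthest.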

How the data were processed

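Cortex RNA of 12 mice (4 groups of 3, postnatal day 16, about 250 ng of total RNA per library) was sequenced by the authors on an Illumina instrument after TruSeq RNA library preparation. The authors aligned reads to mm10 with TopHat and deposited FPKM values per gene symbol from Cufflinks; versions are not given in the sources used here, nor whether values were scaled further between libraries. The deposited FPKM values are not counts, so count models and counting intervals were not used. Steps between low values gave relative depths of 0.856 to 1. Groups were taken from the labels. No pair of libraries shared more than 2 identical values above 0.

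After removal of 302 duplicate rows, rows whose mean across libraries reached 0.5 FPKM (14115 rows, 14075 symbols) were put on the log2(FPKM + 0.1) scale, on which fold changes of low genes are understated. Comparisons used limma 3.58.1 in R 4.3.3 (eBayes with trend), Benjamini-Hochberg adjustment over all rows and 10% FDR. The interaction used all 12 libraries. Ratios to the mean of the 9 genes used an exact permutation test. The procedure was tested on simulated data. Sequences, positions and plots used RefSeq and GENCODE annotation of GRCm38 (also called mm10) with Python 3.11.15, pandas 2.3.3, numpy 2.4.6 and matplotlib 3.10.9.

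The 9 genes, the lists, the tests and the motifs were chosen with earlier results of these data known, so the counts are descriptions. Named genes were the 9, Dnmt1, Dnmt3a and Olig1; in each oligodendrocyte list the 3 largest called changes and the most abundant gene not called; in each list of other cells the most abundant gene and every called gene; and the 5 genes with the most similar profile. Xist, Pdgfra and Pmp2 were named after their values were seen, and some genes that the rule picks are not reported here. Alternatives were pseudocounts of 1 and 0.01, minimum means of 0.1 and 1 FPKM or no filter, eBayes without trend or robust, median ratio scaling, quantile normalization, values summed per symbol, Xist as a covariate, 5% FDR, 1 model of all libraries, the median in place of the mean of the 9 genes, a replicate block and each library left out.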

Additional observations from a re-analysis of the deposited data

Results flagged for a closer look

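For each of the 9 myelin genes the CKO effect differed between the Dnmt1 and the Dnmt3a line when the difference itself was tested (limma interaction over 12 libraries, 3 per group, adjusted p between 3.7e-06 and 2.0e-05). The effect in the Dnmt1 line minus that in the Dnmt3a line, on the log2 scale, was −2.53 for Opalin, −2.24 for Mobp, −2.15 for Mal, −2.08 for Mog, −2.02 for Mag and −2.01 for Ermn. It was −1.79 for Mbp, −1.76 for Cldn11 and −1.38 for Cnp. In the Dnmt1 line all 3 CKO mice lay below all 3 controls for each gene, and in the Dnmt3a line CKO and control values overlapped for each, although for Mbp, Mog, Mal, Opalin and Cldn11 only through the library labelled Dnmt3a control replicate 2, without which these 5 were higher in the CKO mice without overlap (13.7% of all rows were). The lines are separate crosses, and their controls differ by 0.26 to 0.46 on the log2 scale for these genes. Single libraries were not tested for standing apart within their group.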

How the results depend on the processing

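All 9 genes kept their call and direction under 20 of 20 alternatives in the Dnmt1 line and 25 of 25 in the difference between the lines, and 0 of 9 were called under 20 in the Dnmt3a line and 18 between the controls. The median log2 fold change ran from −2.10 to −1.91 in the Dnmt1 line. The labels do not say whether replicate numbers mark pairs of mice. Correlations of same-numbered deviations were −0.06, 0.04 and −0.03 in the Dnmt1 line, and 0.02, −0.08 and −0.0007 in the Dnmt3a line. Taken from means of 3 mice, such correlations cannot decide it. With the replicate block the 9 adjusted p were 0.026 to 0.044 (limma), while calls over all rows fell from 444 to 162. Such calls were 263 at 5% FDR, 306, 206 and 341 without Dnmt1 control replicates 1, 2 and 3, and 199, 266 and 216 without CKO replicates 1, 2 and 3. They rose to 522 with median ratio scaling, 543 with quantile normalization, 545 with robust eBayes and 609 in 1 model of all 12 libraries. Rows called were 1 to 17 (from 2) in the Dnmt3a line and 0 to 7 (from 1) between the controls. In 1 model of all 12 libraries Dnmt1 also passed in the Dnmt1 line (limma adjusted p = 0.097), as Olig1 did. The spread of ratios was 0.81 with a pseudocount of 1 FPKM, against 1.07, and 0.968 to 1.23 with a library left out. Near 0, signs in the Dnmt3a line turned: Mobp was −0.00027 and Cnp −0.0074 with median ratio scaling, −0.0548 and −0.0594 with quantile normalization. With a library left out, ranges were −0.0208 to 0.14 (Mog), −0.062 to 0.0711 (Mobp), −0.0175 to 0.118 (Mag), −0.0489 to 0.0397 (Cnp) and −0.0141 to 0.185 (Mal). In the Dnmt1 line Dnmt3a was 0.0015 with median ratio scaling and 0.0044 with quantile normalization, and Snap25 −0.0138 with the latter. With a library left out in that line, ranges were −0.0264 to 0.0602 (Snap25), −0.365 to 0.425 (Ttr), −0.176 to 0.373 (Ppp1r1b), −0.825 to 0.299 (Egr2) and −0.0600 to 0.0185 (Dnmt3a). Olig2, Sox6, Enpp6 and Trem2 lost their call in several alternatives, and Sqle gained one in 4 of 20. The causes were not tested. Unknown read counts and 3 mice per group limit precision.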
